A study of Mus musculus with 6 samples.

Results

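The genes described here build cholesterol, sense it, move it within the cell and carry it out again. They are 33 genes chosen by symbol, among the 55536 genes counted in thymocytes, T cells still maturing in the thymus. All 33 were matched to the table, and all had enough counts to be tested, as had 18690 genes in all. Messenger RNA was counted in 6 libraries, each from the thymus of a different untreated mouse. Wildtype mice (Il3ra+/+) gave 3 of them, and the other 3 are from mice labelled Il3ra-/-, lacking the alpha chain of the interleukin-3 receptor. Strain, age, sex and the deleted part of the allele were not given in the sources used here. This comparison asks how steady-state thymocytes of the 2 genotypes differ.

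Cells make cholesterol from acetyl-CoA through mevalonate, isoprenoids, squalene and a chain of sterols. When sterols in the endoplasmic reticulum run low, the escort protein Scap carries the transcription factor SREBP2 to the Golgi, where it is cut and freed to switch on nearly every enzyme of the chain; when sterols are plentiful, the Insig proteins hold Scap back. Oxidised sterols bind the nuclear receptors LXR alpha and beta, which switch on the exporters Abca1 and Abcg1 and the ubiquitin ligase Mylip. Dividing lymphocytes are known to raise synthesis and lower export.

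The libraries held 55747682 to 82684219 counts. Il3ra, the targeted gene (chromosome 14, 14346275 to 14356011, GRCm38 as for all positions here), was no lower in the labelled knockout: it had 465, 376 and 399 counts in wildtype and 481, 673 and 514 there, 1.14-fold higher (95% interval 0.909 to 1.44, adjusted p = 0.585 in edgeR's quasi-likelihood fit). This leaves the genotypes unchecked, so directions are stated between libraries as they are labelled. Replicate 1 of each genotype had 88078 and 128236 counts of Xist, the RNA of the inactive X chromosome, against 8 to 57 in the other libraries. Thymocyte markers such as Cd4, Cd8a and Rag1 summed to 10493 to 11952 CPM (counts scaled to a common library size with TMM factors) in wildtype and 9030.3 to 9699 CPM in the labelled knockout. Of these 10 markers, 9 were fitted lower in the labelled knockout (against 48.8% of tested genes). At an unadjusted p under 0.05 in edgeR, 5 were lower (against 6.6% of tested genes) and 0 higher (against 8.01%). Macrophage markers, of which all 15 were fitted higher (against 51.2% of tested genes), summed to 109.6 to 154 CPM in wildtype and 89.3 to 272 CPM in the labelled knockout. Of 4 tested stromal and endothelial markers, 2 were fitted higher and 2 lower. All 6 listed summed to 123.7 to 126.9 CPM in wildtype and 123.7 to 131.4 CPM in the labelled knockout. The 2 higher ones, Cdh5 (0.369 to 0.450 and 0.677 to 2.96 CPM) and Pdgfrb (5.0 to 6.07 and 7.19 to 9.73 CPM), were called by DESeq2, at adjusted p-values of 0.0140 and 0.0207. Both were named after their values were seen. Epithelial markers were fitted higher in 6 of 6 (against 51.2% of tested genes), summing to 13.6 to 17.1 and 16.5 to 18.3 CPM. Erythroid markers were fitted lower in 5 of 5 (against 48.8%), summing to 9.09 to 57.6 and 3.37 to 34.2 CPM. The part of these cell types in the results was not tested. In such bulk samples, fewer cells of a type and less RNA per cell cannot be told apart.

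Promoter sequences at the starts of these genes were searched for short motifs. RefSeq windows of 300 bases (250 before and 50 after the start, GRCm38.p6) were found for 27 of the 33 genes, 36 windows in all since 6 genes had more than 1, and Sqle, Fdps, Fdft1, Abcg1, Stard4 and Npc1 had none in the table. Both strands were searched for the letters of a sterol regulatory element (TCACNCCAC), a CCAAT box (CCAAT), a GC box (GGGCGG), an E-box (CACGTG) and a repeat bound by LXR (AGGTCA repeated in the same direction after 4 bases), and matches of different motifs were allowed to overlap. The stretches below lie outside annotated exons and are shown because they hold, or lack, these letters. Capitals mark the sterol regulatory element and CCAAT boxes, which read ATTGG where the match is on the other strand.
Hmgcs1 (chr13:119690124-119690283, plus strand): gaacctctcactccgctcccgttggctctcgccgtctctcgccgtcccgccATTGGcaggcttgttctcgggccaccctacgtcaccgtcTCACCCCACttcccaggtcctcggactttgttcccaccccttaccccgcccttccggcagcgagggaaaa
Mvk (chr5:114444165-114444268, plus strand): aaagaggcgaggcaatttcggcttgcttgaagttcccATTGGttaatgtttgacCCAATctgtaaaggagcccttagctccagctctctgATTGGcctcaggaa
Insig1 (chr5:28071162-28071265, plus strand): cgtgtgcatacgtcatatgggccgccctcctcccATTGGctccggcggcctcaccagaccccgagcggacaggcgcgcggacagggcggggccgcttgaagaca
Nr1h2 (chr7:44553966-44554056, minus strand): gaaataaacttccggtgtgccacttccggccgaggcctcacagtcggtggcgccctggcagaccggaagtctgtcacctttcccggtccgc
Abca1 (chr4:53159896-53159986, minus strand): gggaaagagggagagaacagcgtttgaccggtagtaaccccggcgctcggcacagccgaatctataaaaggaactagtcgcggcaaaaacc

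A CCAAT box stood in the windows of 14 of 15 synthesis genes (93.3%) and 4 of 5 sensor genes, against 42.4% of the 11125 tested genes with a window. Among the efflux genes it stood in 1 of 4, that of Mylip, and the windows of Nr1h2 and Abca1 above held none. It also stood in 2 of 2 transport and storage genes, Npc2 and Soat1, in Ggps1, and in 22 of all 27 genes (81.5%). The exact letters of the sterol regulatory element were found in Hmgcs1 alone among the 27 genes, beginning at position -137 from the start, and in 1.42% of tested genes. GC boxes stood in 14 of 15 synthesis genes against 64.5% of tested genes, and E-boxes in 3 of 15 against 11.4%. The exact letters of the LXR repeat were found in none of the 27 genes and in 0 of the 11125. Looser forms of this repeat were not searched, so the stretches above may hold them. A match is only a run of letters, and its absence says nothing of whether a factor binds.

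Transcripts of the enzymes that make cholesterol were higher on average in the libraries labelled knockout, most of all those of Cyp51, Sqle and Idi1, while the efflux genes were level or slightly lower. None of the 33 genes passed edgeR's quasi-likelihood test at an adjusted p of 0.05 over all genes, and 0.091% of all tested genes did (0.0161% higher and 0.0749% lower). At an unadjusted p under 0.05 stood 12 of the 33, against 14.6% of tested genes: 9 of the 33 were higher (27.3%, against 8.01% of tested genes) and 3 were lower (9.09%, against 6.6%). With wildtype replicate 1, 2 or 3 left out, the higher and lower counts were 17 and 1, 6 and 0, and 6 and 3. With labelled knockout replicate 1, 2 or 3 left out, they were 8 and 1, 9 and 1, and 8 and 2. The shares over all tested genes in these refits were not computed, so a table-wide shift cannot be told from one in these genes. DESeq2's Wald test called 4 of the 33, all higher in the labelled knockout (12.1%, against 4.02% of its tested genes in either direction, 2.67% higher and 1.35% lower), namely Cyp51, Idi1, Sqle and Insig1. In 9 of the 33 genes every labelled knockout library lay above every wildtype library (27.3%, against 10.9% of tested genes), and in 4 every one lay below (12.1%, against 9.38%), so that 13 of 33 did not overlap, against 20.3% of tested genes. Without the low-count filter edgeR also called 4, Idi1, Sqle, Cyp51 and Insig1, against 2.53% of the 33265 genes then tested. The p-values set the genotype difference against the variation between these mice, 3 per genotype, with each gene's variation moderated across genes.

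**Figure D1:**
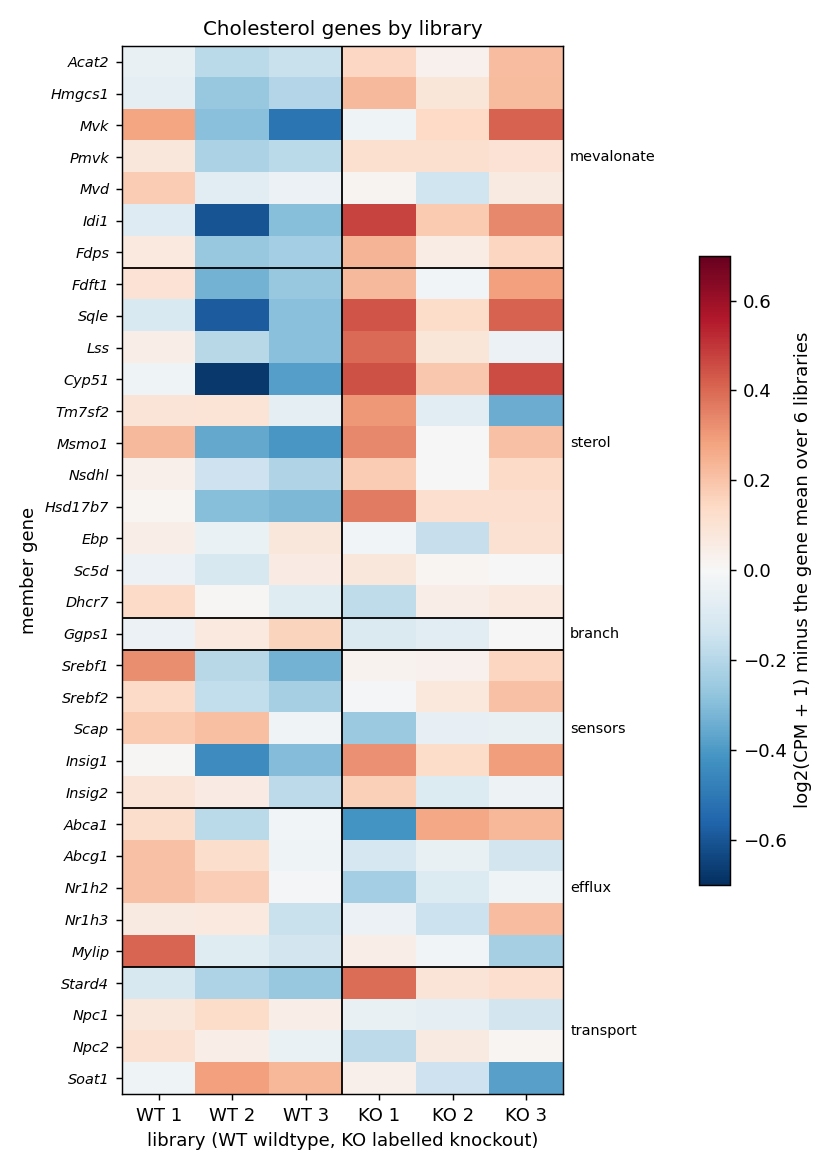
Heat map of the 33 genes (rows, grouped by role) in the 6 libraries (columns), coloured by log2(CPM + 1) minus the gene's mean over the libraries. Idi1, Sqle, Cyp51, Insig1 and Stard4 were red in all 3 labelled knockout libraries, whereas Scap, Nr1h2, Abcg1 and Npc1 were blue there.

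The early enzymes, from acetyl-CoA to farnesyl diphosphate, were described in pathway order. Acat2, which joins acetyl-CoA units (chromosome 17, 12942890 to 12960747), had 30.0, 27.2 and 27.9 CPM in wildtype and 34.5, 31.8 and 36.4 CPM in the labelled knockout, a fold of 1.21. Hmgcs1, the synthase that commits these units to the mevalonate route (chromosome 13, 119690379 to 119708260), had 29.6, 25.7 and 26.8 CPM against 36.5, 32.9 and 36.4 CPM, a fold of 1.29 (edgeR's adjusted p = 0.168, DESeq2's adjusted p = 0.0607). In both genes the genotypes did not overlap. Idi1, the isomerase that makes the allylic isoprenoid unit (chromosome 13, 8885501 to 8892451), stood out in this stretch with 29.3, 20.2 and 25.2 CPM in wildtype and 43.9, 35.7 and 39.7 CPM in the labelled knockout. Its fold was 1.59 with an interval of 1.29 to 1.97 (edgeR's adjusted p = 0.138, DESeq2's adjusted p = 0.00202). Every labelled knockout library exceeded the highest wildtype library.

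The kinases and the decarboxylase between them had smaller folds or overlapping groups. Pmvk, the second kinase (chromosome 3, 89454541 to 89469013), had 14.4, 11.5 and 11.8 CPM in wildtype and 14.8, 14.8 and 14.7 CPM in the labelled knockout, without overlap but with wildtype replicate 1 close beneath (fold 1.17, edgeR's adjusted p = 0.433). Mvk, mevalonate kinase, ranged from 5.55 to 10.3 CPM in wildtype and from 8.14 to 11.4 CPM in the labelled knockout. Relative to its level it had the widest wildtype spread of this stretch, with replicate 1 at the top. Mvd, the decarboxylase, had 12.2 ± 1.32 CPM (SD, n = 3) in wildtype and 11.9 ± 0.929 CPM (SD, n = 3) in the labelled knockout, and its groups overlapped. Ggps1, which draws isoprenoids off to lipid anchors for proteins and so leaves the sterol route, had 39.2 ± 2.75 and 35.9 ± 1.29 CPM (SD, n = 3 each), also with overlap.

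Fdps, which makes farnesyl diphosphate, and Idi1 both have processed pseudogenes that were also fitted higher in the labelled knockout. In both pairs the order of the wildtype libraries was the same in copy and parent, and that of the labelled knockout libraries differed. Fdps had 245, 176 and 204 counts in wildtype and 287, 339 and 306 in the labelled knockout, 1557 in all. Gm3571, its pseudogene on chromosome 10, had 2096 counts in all, more than Fdps itself, with 5.43, 3.72 and 3.81 CPM in wildtype and 6.01, 6.53 and 5.69 CPM in the labelled knockout. Fdps ranged from 3.05 to 4.11 and from 4.04 to 4.74 CPM. Of the 50-base windows of the Fdps transcript, 11.7% also occur in another gene's transcripts, so its level here is uncertain. The Idi1 pseudogene Gm13502 on chromosome 2 had 6.0, 4.64 and 5.85 CPM in wildtype and 10.8, 8.93 and 8.40 CPM in the labelled knockout, a log2 fold of 0.77 beside 0.67 for Idi1 (edgeR's adjusted p = 0.139 and 0.138). For Idi1 the shared part of the transcript was 30.5%. How reads that fit both copies were counted was among the steps not given in the sources used here. A pseudogene and its parent may share reads, which was not tested.

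The sterol stage of the route begins with squalene. Fdft1, squalene synthase, had 23.4, 17.1 and 18.0 CPM in wildtype and 25.7, 21.5 and 26.9 CPM in the labelled knockout, where replicate 2 lay below wildtype replicate 1 (fold 1.26, edgeR's adjusted p = 0.300). Its transcript overlaps Ctsb on the opposite strand, a lysosomal protease gene with 63304 counts in all and a log2 fold of -0.01, and 30.7% of its 50-base windows occur in other genes' transcripts. Gm6781, a processed pseudogene that holds some of these, had 929 counts in all and a log2 fold of 0.33 beside 0.34 for Fdft1 (edgeR's adjusted p = 0.596). Sqle, squalene epoxidase and a known control point of the route (chromosome 15, 59315077 to 59331192), had 18.5, 13.1 and 16.2 CPM in wildtype and 27.5, 22 and 27.0 CPM in the labelled knockout. The genotypes did not overlap, and the fold was 1.6 with an interval of 1.28 to 1.99 (edgeR's adjusted p = 0.138, DESeq2's adjusted p = 0.00272). Lss, which closes the rings to lanosterol, had 15.0 ± 2.0 and 18.7 ± 3.15 CPM (SD, n = 3 each), with overlap.

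Cyp51, the demethylase that acts on lanosterol (chromosome 5, 4081145 to 4104746), had the largest fold of the 33 genes. It had 20.1, 12.5 and 15.5 CPM in wildtype and 28.4, 23.6 and 28.7 CPM in the labelled knockout, a fold of 1.67 with an interval of 1.31 to 2.15 (edgeR's adjusted p = 0.139, DESeq2's adjusted p = 0.00214). All 3 labelled knockout libraries were above the wildtype range. Akap9, which overlaps Cyp51 on the opposite strand, had a log2 fold of -0.15. Hsd17b7, a ketone reductase of the demethylation complex, had 4.48, 3.41 and 3.36 CPM in wildtype and 5.96, 4.89 and 4.87 CPM in the labelled knockout, a fold of 1.40 without overlap (edgeR's adjusted p = 0.279). Msmo1 and Nsdhl, which act in the same complex, had folds of 1.29 and 1.17 with overlapping groups.

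Several enzymes that finish the molecule had folds near 1. Dhcr7, the last reductase and the highest sterol enzyme per exon length, had 65.7, 60.2 and 56.3 CPM in wildtype and 52.8, 61.9 and 62.8 CPM in the labelled knockout (fold 0.974, interval 0.832 to 1.14). Ebp, the sterol isomerase, had 21.5, 20.0 and 21.9 CPM against 20.5, 18.4 and 22.4 CPM (fold 0.966, interval 0.816 to 1.14). Sc5d, a desaturase, had 28.0, 26.6 and 30.0 CPM against 30.5, 29.1 and 28.8 CPM (fold 1.05, interval 0.901 to 1.21). In these 3 genes the libraries of both genotypes were mixed, and the intervals exclude the folds fitted for Idi1, Sqle and Cyp51. Tm7sf2, a reductase whose reaction Lbr can also carry out, had 10.7 ± 0.723 and 10.3 ± 2.59 CPM (SD, n = 3 each).

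**Figure D2:**
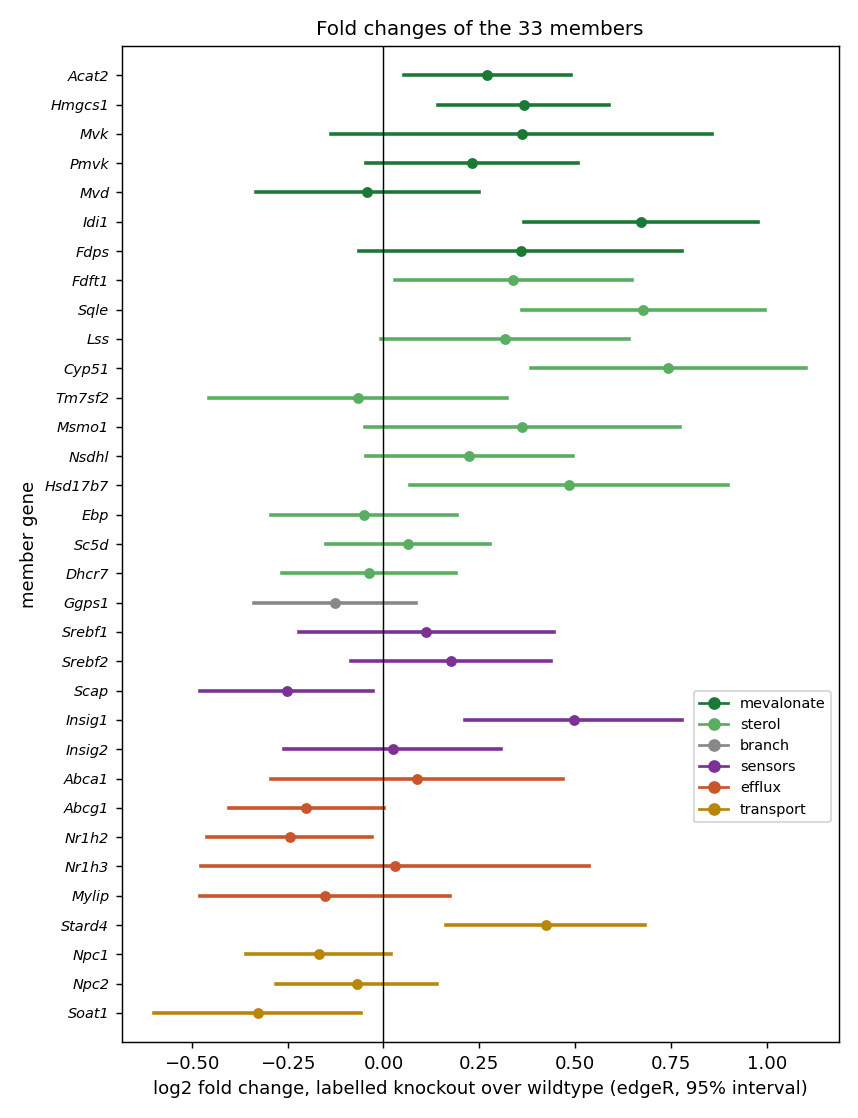
Log2 fold change of each gene (labelled knockout over wildtype, x axis) with its 95% interval from edgeR's fit, coloured by role. Cyp51, Sqle and Idi1 lie farthest to the right at 0.74, 0.68 and 0.67, and Soat1 farthest to the left at -0.33.

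Of the 18 synthesis genes, 14 were fitted higher (77.8%, against 51.2% of tested genes). In 7 the groups did not overlap, each of them higher (38.9%, beside the 10.9% of tested genes given above). Their median log2 fold was 0.33, against 0.01 over all tested genes. Wildtype replicate 1, the Xist-high library, was the highest wildtype library in 15 of the 18. It was also the highest in 4 of the 5 efflux genes and in 25 of all 33 genes. This share over all tested genes was not computed. Labelled knockout replicate 1, also Xist-high, was the highest of its genotype in 11 of the 18, and replicate 2 in 0. With all 6 libraries kept and an Xist-high term added to the fit, the median was 0.33. EdgeR then called 0 of the 33 genes, and 12 of all tested genes. With both Xist-high libraries left out, only replicates 2 and 3 of each genotype remained, and the median was 0.37. In that smaller fit edgeR called 6 of the 33 genes against 3.98% of all tested genes (2.06% higher and 1.92% lower). These were Cyp51, Idi1, Insig1, Sqle and Mvk, higher at adjusted p-values of 0.0225, 0.0304, 0.0354, 0.0368 and 0.0444, and Soat1, lower at 0.0370.

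The sensor genes were divided. Srebf2, which encodes the regulator of synthesis SREBP2 and stood highest of the 33 genes at 36.5 CPM per kilobase of exon, had 286, 231 and 222 CPM in wildtype and 259, 275 and 301 CPM in the labelled knockout. Srebf1, its relative that mainly serves fatty acid genes, had 196, 136 and 124 CPM against 159, 159.8 and 174 CPM. Both overlapped, with wildtype replicate 1 above the other wildtype libraries, and their folds were 1.13 (interval 0.942 to 1.35) and 1.08 (0.858 to 1.36). Insig1, the sterol sensor that is itself switched on by SREBP2 (chromosome 5, 28071363 to 28078662), had 29.9, 21.6 and 23.9 CPM in wildtype and 37.3, 32.5 and 36.5 CPM in the labelled knockout. Its groups did not overlap, and its fold was 1.41 with an interval of 1.16 to 1.72 (edgeR's adjusted p = 0.154, DESeq2's adjusted p = 0.0217). Insig2, its paralogue, had 15.2 ± 1.62 and 15.5 ± 1.58 CPM (SD, n = 3 each). Scap, the escort of SREBP2 (chromosome 9, 110333288 to 110384950), was on the lower side, with 80.7, 82.3 and 69.8 CPM in wildtype and 59.1, 68.0 and 68.2 CPM in the labelled knockout. Every labelled knockout library lay below the lowest wildtype library, although by a narrow margin (fold 0.839, edgeR's adjusted p = 0.291).

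**Figure D3:**
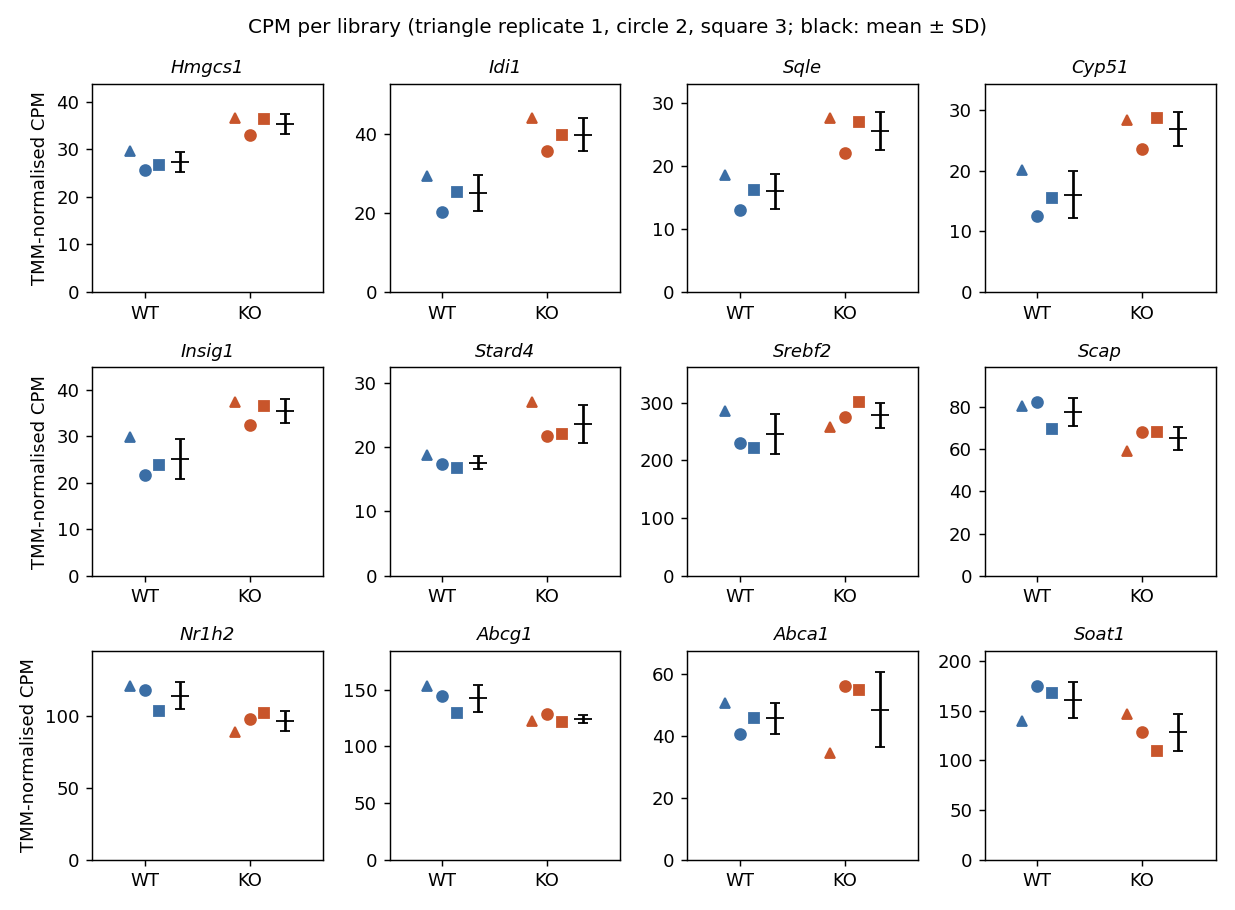
TMM-normalised CPM of 12 genes (y axis, from 0) in each library, with replicates marked by shape and the mean ± SD of 3 libraries in black. The points of Hmgcs1, Idi1, Sqle, Cyp51, Insig1 and Stard4 do not overlap between genotypes, whereas those of Srebf2, Abca1 and Soat1 do.

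Folds in the efflux arm were smaller, and most lay at or below 1. Nr1h2, LXR beta (chromosome 7, 44549616 to 44553951), had 121, 118 and 103 CPM in wildtype and 88.4, 97.7 and 102 CPM in the labelled knockout (fold 0.844, edgeR's adjusted p = 0.287). Abcg1, an exporter to lipoprotein particles (chromosome 17, 31057675 to 31117988), had 153, 145 and 129.9 CPM against 122, 128 and 121 CPM (fold 0.870, edgeR's adjusted p = 0.343). In both, every labelled knockout library lay below the wildtype range, the highest of them only just. Mylip, which marks lipoprotein receptors for destruction, had 57.7, 40.7 and 39.5 CPM in wildtype and 44.6, 42.7 and 36.6 CPM in the labelled knockout, so that wildtype replicate 1 alone stood above the rest. Nr1h3, LXR alpha, was near the bottom of the 33 genes with 123 to 190 counts per library and a fold of 1.02 (interval 0.719 to 1.45).

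Abca1, the exporter that loads apolipoproteins (chromosome 4, 53030787 to 53159895), varied more within the labelled knockout than between genotypes. It had 50.7, 40.5 and 45.7 CPM in wildtype and 34.5, 56.1 and 54.7 CPM in the labelled knockout, with replicate 1 lowest of all libraries. Summed macrophage markers were likewise lowest in labelled knockout replicate 1 (89.3 CPM, against 154 and 272 CPM in replicates 2 and 3), as was Apoe, a lipoprotein gene under LXR control (58.1, against 91.8 and 103 CPM). The part of macrophage content in the Abca1 values was not tested. Without the Xist-high libraries the log2 fold of Abca1 was 0.36 (edgeR's adjusted p = 0.0655) in place of 0.09.

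Genes of transport and storage differed from each other. Stard4, a carrier of cholesterol between membranes that SREBP2 is known to induce (chromosome 18, 33199355 to 33213862), had 18.7, 17.4 and 16.7 CPM in wildtype and 27.0, 21.7 and 22.1 CPM in the labelled knockout. The groups did not overlap, at a fold of 1.34 with an interval of 1.12 to 1.6 (edgeR's adjusted p = 0.169, DESeq2's adjusted p = 0.0505). Soat1, which esterifies cholesterol for storage (chromosome 1, 156424525 to 156474331), had 140.1, 175 and 168 CPM in wildtype and 146, 129 and 109.5 CPM in the labelled knockout. It overlapped because wildtype replicate 1 lay below labelled knockout replicate 1 (fold 0.797, interval 0.661 to 0.961, edgeR's adjusted p = 0.263). Npc1, which passes cholesterol out of lysosomes, had 72.7, 75.2 and 71.0 CPM against 66.3, 65.6 and 62.7 CPM, lower in every labelled knockout library at a fold of 0.889 (edgeR's adjusted p = 0.392). Npc2, its soluble partner, had 152, 146 and 137 CPM against 124, 148 and 142 CPM, with overlap.

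The synthesis and efflux arms were also set side by side in each library. The mean log2(CPM + 1) of the 18 synthesis genes, relative to the mean over the 6 libraries, was 0.05, -0.25 and -0.21 in wildtype and 0.21, 0.04 and 0.16 in the labelled knockout. That of the 5 efflux genes was 0.20, 0.02 and -0.07 against -0.15, -0.01 and 0.01. The synthesis score minus the efflux score was -1.31, -1.43 and -1.31 in wildtype and -0.80, -1.11 and -1.01 in the labelled knockout, a difference of 0.38 between the genotype means on the log2 scale. No p is given for these scores, because the genes were chosen with earlier results of these data known. The efflux median log2 fold was -0.15, and it turned to 0.044 without wildtype replicate 1 and moved to -0.015 without both Xist-high libraries. Cell division genes were also higher in the labelled knockout. All 14 cell cycle markers were fitted higher with an unadjusted p under 0.05 in edgeR (100%, against 8.01% of tested genes). DESeq2 called 11 of the 14, each higher (against 2.67% of its tested genes), beside 3 of the 18 synthesis genes. Groups did not overlap in 13 of the 14, each higher (against 10.9%), beside 7 of the 18. The 14 markers summed to 2819 to 3539 CPM in wildtype and 3712 to 4979 CPM in the labelled knockout. Their scores were -0.18, -0.42 and -0.14 in wildtype and 0.35, 0.02 and 0.38 in the labelled knockout. Replicate 2 was lowest in each genotype, as in the synthesis scores. Highest in each genotype was replicate 3 for cell division and replicate 1 for synthesis. The part of cell division in the synthesis values was not tested.

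**Figure D4:**
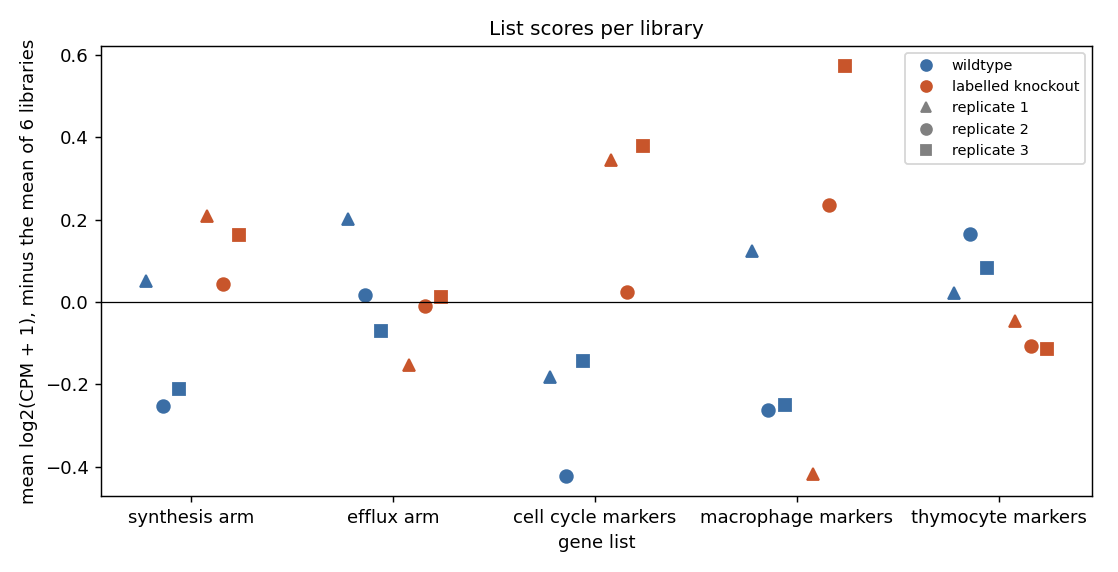
Mean log2(CPM + 1) of 5 gene lists per library, minus the mean of the 6 libraries (y axis), for wildtype (blue) and labelled knockout (orange), with replicates marked by shape. Synthesis scores reach from -0.25 to 0.05 in wildtype and from 0.04 to 0.21 in the labelled knockout, and macrophage markers spread widest within the labelled knockout.

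Levels between genes were compared per kilobase of merged exon length. Above all synthesis genes stood Srebf2, Nr1h2, Srebf1, Npc2, Abcg1, Soat1 and Mylip, at 36.5, 31.3, 28.1, 26.0, 18.3, 14.8 and 13.5 CPM per kilobase over the 6 libraries. In wildtype Srebf2 (34.3 ± 4.84) and Nr1h2 (33.9 ± 2.77, SD, n = 3 each, CPM per kilobase) lay within each other's spread. The highest synthesis genes were Acat2 at 12.3, Dhcr7 at 10.3, Idi1 at 9.23 and Ebp at 9.0 CPM per kilobase. Lowest were Fdps (0.929), Nr1h3 (0.886) and Hsd17b7 (0.880), which differed by less than their spread. Of the Acat2 transcript, 45.9% of the 50-base windows also occur in Acat3 or Tcp1, so its place in this order is uncertain.

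Other genes of the pathway, 60 of them tested in lists around the 33, were fitted lower in 36 (60.0%, against 48.8% of all tested genes) and higher in 24. Over these 60, edgeR called 0. At an unadjusted p under 0.05, 5 were on the higher side (8.33%, against 8.01% of tested genes) and 9 on the lower side (15.0%, against 6.6%). DESeq2 called 1 of 56, lower (1.79%, against 1.35%). The median log2 fold was -0.06. Gramd1a, which moves cholesterol from the cell membrane to the endoplasmic reticulum, was the gene DESeq2 called. It had 414, 524 and 489 CPM in wildtype and 361, 349 and 269.6 CPM in the labelled knockout, below the wildtype range in all 3 libraries (fold 0.687, edgeR's adjusted p = 0.151, DESeq2's adjusted p = 0.00763). Scarb1, a receptor for high density lipoprotein, had 21.0, 15.6 and 16.1 CPM against 24.1, 21.6 and 27.3 CPM without overlap (fold 1.38, edgeR's adjusted p = 0.190). Both belong to a list of 16 sterol carriers and receptors, with 3 higher (18.8%, against 8.01% of tested genes) and 2 lower (12.5%, against 6.6%) at an unadjusted p under 0.05.

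Among 10 genes that process SREBP or stabilise its partners, 2 were higher (20.0%, against 8.01% of tested genes) and 1 was lower (10%, against 6.6%) at an unadjusted p under 0.05. Tmem97, which binds sterols and is itself an SREBP target, had 14.5, 7.79 and 9.16 CPM in wildtype and 17.2, 13.2 and 18.2 CPM in the labelled knockout (fold 1.54, edgeR's adjusted p = 0.245). Syvn1, a ubiquitin ligase of the endoplasmic reticulum, had 76.0, 103 and 94.9 CPM against 74.3, 74.1 and 66.8 CPM (fold 0.786, edgeR's adjusted p = 0.226). Tmem97 overlapped by 1 library, and Syvn1 did not overlap. Of 10 tested LXR targets and partners outside the 33, 4 were lower (40.0%, against 6.6% of tested genes) and 0 higher (against 8.01%) at that level, with Lpcat3 at 54.7 ± 0.877 and 46.9 ± 1.29 CPM and Abca7 at 161 ± 24.0 and 132 ± 13.4 CPM (SD, n = 3 each). Their edgeR adjusted p-values were 0.272 and 0.296. In the list of 14 genes that attach or use isoprenoids, 0 were higher (against 8.01% of tested genes) and 2 were lower (14.3%, against 6.6%) at that level, the subunits Rabggta and Rabggtb of a prenyl transferase for Rab proteins, at folds of 0.826 and 0.830.

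Lists of other sterol enzymes and of oxysterol genes had 0 called genes and 0 below 0.05 before adjustment in edgeR, and DESeq2 called 0 in both lists. Lipa, the lysosomal lipase for cholesterol esters, had 209 ± 19.3 and 179.7 ± 18.5 CPM (SD, n = 3 each), wildtype first. Of the 6 oxysterol genes 3 had enough counts to be tested. Gpr183, a receptor for oxysterols, had 7.71, 5.73 and 6.80 CPM in wildtype and 5.17, 5.93 and 4.94 CPM in the labelled knockout, with overlap, and Cyp7b1, an oxysterol hydroxylase, had 2 to 45 counts per library.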

How the data were processed

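NucleoSpin RNA and TruSeq Stranded mRNA were used for extraction and libraries, per the labels' protocols. The submitters' processing notes name STAR 2.5.4b, featureCounts and GRCm38, with annotation release, strand setting and handling of multi-mapped reads not given in the sources used here. Values deposited by the authors are unnormalised counts for each Ensembl gene and mouse, 55747682 to 82684219 per library. All 55536 identifiers matched GENCODE M21, which gave symbols, positions and exon lengths. Genotypes were compared with edgeR 4.0.16 in R 4.3.3 (filterByExpr defaults, TMM, robust glmQLFit and glmQLFTest, no covariate) over 18690 genes, with Benjamini-Hochberg adjustment over all of them and a threshold of 0.05. Scores use log2(CPM + 1). The test was tried on simulated counts first. Alternatives were DESeq2 1.42.0, RLE scaling, other filters, a replicate block, an Xist-high term, and omission of libraries.

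The genes and lists were chosen with earlier results of these data known. All 33 genes are named; full values are given for those with an unadjusted p under 0.05, without overlap between genotypes, or among the 3 highest of their role per exon length, and up to 2 genes of smallest p for each other pathway list. Full values of Abca1 and Fdps, Apoe, and the overlapping genes and copies, lie outside it, being chosen once their values had been seen. Faxdc2 matched no symbol, and 1 gene that the rule would name is not reported here. Promoters are RefSeq's, on GRCm38.p6.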

Additional observations from a re-analysis of the deposited data

How the results depend on the processing

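The number of genes called over the whole table was 17 in edgeR. It was 587 in DESeq2, 840 with no filter on low counts, 10 with a mean of at least 1 CPM, 9 with the replicate block, 12 with the Xist-high term, 762 without both Xist-high libraries, and 8 to 29 when single libraries were left out (8 without wildtype replicate 2, 29 without labelled knockout replicate 1). Of the 33 genes, 0 were called at first, 4 by DESeq2, 4 without the filter, 6 without both Xist-high libraries and 0 with the replicate block, with the Xist-high term or with any single library left out. The cause was not tested. Libraries of the same replicate number had correlations of deviations of -0.10, 0.095 and -0.12 over all tested genes, and of -0.046, 0.39 and -0.092 over the 33. With 3 libraries per genotype, these values cannot settle whether the numbers mark pairs. The replicate block changed no call at the adjusted threshold among the 33. With it, the genes at an unadjusted p under 0.05 in edgeR were 11 higher and 0 lower in place of 9 and 3. Lss and Msmo1 then passed that level, and Scap, Nr1h2 and Soat1 did not. The share of all tested genes at that level was not computed for this fit. A table-wide shift thus cannot be told from one in these genes.

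The synthesis median log2 fold stayed between 0.24 and 0.43 when single libraries were left out. The efflux median ran from -0.25 to 0.044 in those fits and was -0.015 without both Xist-high libraries. Of the 33 genes, 23 kept their direction in all 13 alternatives. Without both Xist-high libraries Mvd turned to 0.030, Dhcr7 to 0.097, Insig2 to -0.0067 and Npc2 to 0.037. With single libraries left out, log2 folds ran from -0.091 to 0.050 for Mvd, -0.27 to 0.088 for Tm7sf2, -0.12 to 0.024 for Ebp, -0.090 to 0.040 for Dhcr7, -0.017 to 0.34 for Srebf1, -0.062 to 0.086 for Insig2, -0.028 to 0.28 for Abca1, -0.13 to 0.15 for Nr1h3, -0.25 to 0.044 for Mylip and -0.12 to 0.0039 for Npc2. Depth limits Nr1h3 most, at 123 to 190 counts per library.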
